A study of Mus musculus with 12 samples.

Results

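The 36 genes described here are markers of endothelium, the cell layer that lines blood and lymph vessels and the chambers of the heart. They were followed over 12 single cultured cardiac progenitor cells (CPCs), in which the cell named CPC10 stood apart. All 36 genes were found by symbol among the 21729 genes of the count table, and 27 of them had a count in at least 1 cell. The list was drawn up with the levels in CPC10 already known, so what follows describes these cells and tests nothing.

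Endothelial cells hold a vessel wall together with VE-cadherin, PECAM1 and tight junction proteins. They catch blood cells with selectins and take their identity from ETS, SOXF, GATA and TAL factors acting together. Subsets of vessels differ in these genes. Heart capillaries take up fatty acids through Cd36 and Gpihbp1, fenestrated and venous vessels use Plvap, and lymphatic vessels use Prox1 and Lyve1.

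The cells were c-Kit+ CPCs sorted from non-myocytes of hearts of FVB female mice aged 12 weeks, after depletion of blood lineages. Cells of a pair of hearts were pooled, expanded on gelatin and passaged 5 times before single cells were picked by mouth pipette. The 12 cells carry the same label, cultured, and no label names an animal or a dish, so they count as 1 sample. No p-value was computed between cells. Total counts ran from 3453708 in CPC1 to 5690184 in CPC12, and CPC10 had 5326126. At these depths a gene with no count could lie at up to 0.869 CPM (counts per 1000000 counts of the cell) in CPC1 and 0.563 CPM in CPC10, the level of 3 counts, which is a one-sided limit and lies below the upper end of the 2-sided intervals. Reads are not independent molecules, so this limit and the intervals given for counts cover counting error only.

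CPC10 carried most of the endothelial RNA of the data set. The 36 genes summed to 13640 CPM there, or 1.36% of its counts (exact 95% binomial interval 1.35 to 1.37%). In the other 11 cells the sum was 82.7 CPM at the lowest, 134 CPM at the median and 214 CPM at the highest. CPC10 had counts of 25 of the 36 genes, and of 10057 of all 21729 genes. It was the highest of the 12 cells for 25 of the 36 genes, the same 25. Over all genes in the table, counted or not, it held that position for 7.69%. In CPC10 21 genes reached 10 CPM, as did 34.9% of all genes there.

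The genes were parted by size of difference. A gene was placed in the programme of CPC10 when it had 10 CPM or more there and lay at least 10-fold above the highest of the other 11 cells, each set to no less than the level of 3 counts. By this rule 16 of the 36 genes formed the programme, against 0.607% of all 21729 genes. A further 5 reached 10 CPM in CPC10 but were closer to another cell, 4 were counted below 10 CPM, and 11 had no count in CPC10. On mm10, Emcn lies at chr3:137341067-137432185, Plvap at chr8:71497765-71511752, Pecam1 at chr11:106654217-106750628, Cdh5 at chr8:104101625-104144511 and Ptprb at chr10:116275523-116389535, and counts refer to whole genes. The genes nearest the line were Lyl1, at 12.8-fold, and Fli1 on the other side of it, at 6.81-fold.

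**Figure D1:**
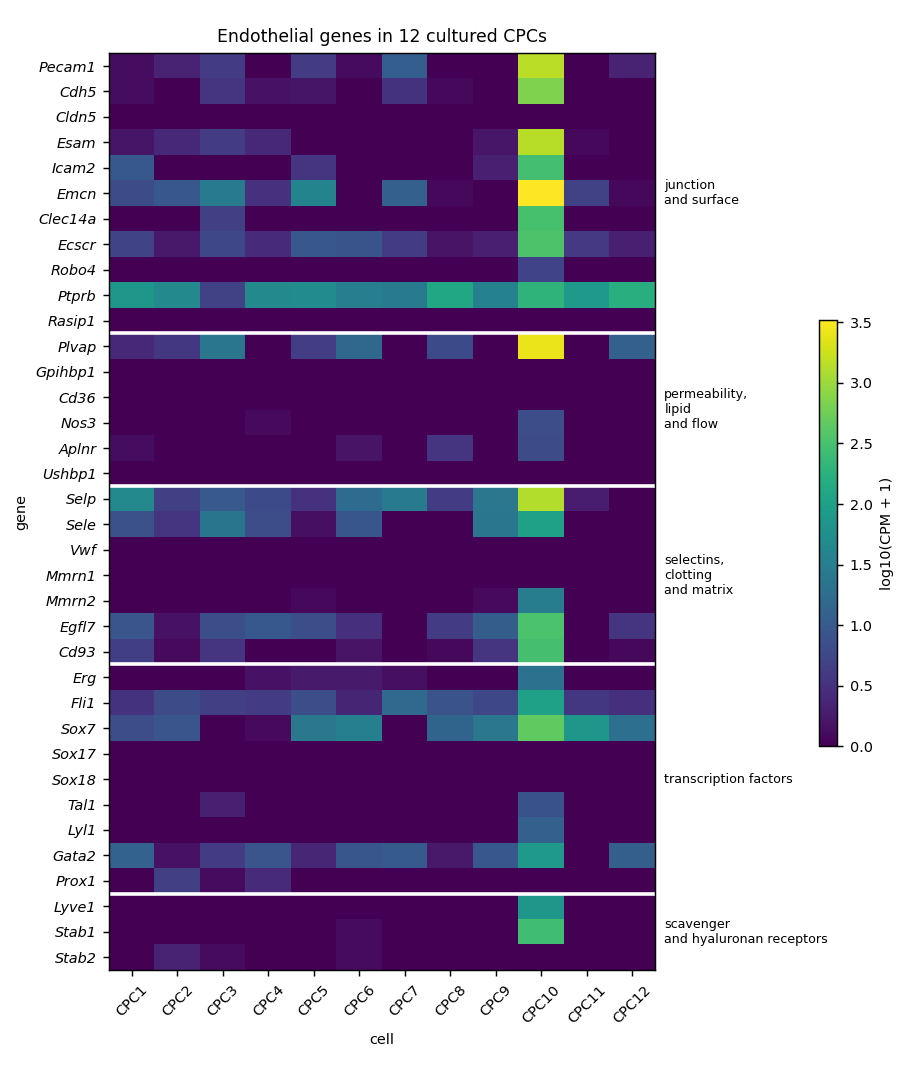
Level of the 36 endothelial genes (rows, grouped by role) in the 12 cells (columns), coloured by log10(CPM + 1). The column of CPC10 is bright for most junction genes, 9 rows are at 0 in each cell, and Ptprb has a level above 0 in each of the 12 cells.

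Promoters were read from RefSeq windows on GRCm38.p6, the build behind mm10, each with 250 bases before and 50 after a transcription start. Of the 36 genes 18 had a window, 25 windows in all. ETS factors bind around the letters GGAA, and 24 of the 25 windows held GGAA on either strand, as did 96.0% of 32851 windows of all genes. The longer GGAAG, which contains GGAA, was in 19 of 25 windows and in 71.4% of all. GATAA was in 6 windows against 25.4% of all, ACAAT, a core of SOX sites, in 8 against 31.0%, and CANNTG, the E-box, in 17 against 72.3%. The shares over these few windows lay near those of all promoters.

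To show the letters behind these counts, the 250 bases upstream of the start are given for 3 genes of the programme and for 2 genes listed at 0, written along the strand of the gene with GGAAG or its reverse complement in capitals. They were chosen after the values were seen. Emcn lies at chr3:137340828-137341077 (plus strand), Selp at chr1:164115014-164115263 (plus), Stab1 at chr14:31168642-31168891 (minus), Cldn5 at chr16:18776597-18776846 (plus) and Ushbp1 at chr8:71395802-71396051 (minus).
Emcn: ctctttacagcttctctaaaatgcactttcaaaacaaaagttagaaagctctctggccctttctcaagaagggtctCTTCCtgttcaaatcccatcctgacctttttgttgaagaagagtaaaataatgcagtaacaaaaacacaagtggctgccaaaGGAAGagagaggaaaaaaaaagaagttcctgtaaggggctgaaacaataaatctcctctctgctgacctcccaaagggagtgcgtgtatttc
Selp: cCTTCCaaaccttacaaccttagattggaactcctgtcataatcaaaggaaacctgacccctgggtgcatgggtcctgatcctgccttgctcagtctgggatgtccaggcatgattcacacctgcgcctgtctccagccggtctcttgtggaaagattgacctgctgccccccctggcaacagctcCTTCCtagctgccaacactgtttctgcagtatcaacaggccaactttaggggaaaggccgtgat
Stab1: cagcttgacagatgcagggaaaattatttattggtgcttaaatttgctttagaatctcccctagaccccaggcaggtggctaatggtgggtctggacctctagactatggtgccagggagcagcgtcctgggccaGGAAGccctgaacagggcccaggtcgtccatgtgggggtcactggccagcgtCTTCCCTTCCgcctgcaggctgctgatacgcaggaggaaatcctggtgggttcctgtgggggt
Cldn5: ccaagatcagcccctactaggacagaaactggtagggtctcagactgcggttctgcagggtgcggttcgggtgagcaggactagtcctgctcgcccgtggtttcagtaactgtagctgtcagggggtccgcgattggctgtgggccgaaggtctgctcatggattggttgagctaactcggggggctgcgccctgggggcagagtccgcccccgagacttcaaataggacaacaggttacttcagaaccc
Ushbp1: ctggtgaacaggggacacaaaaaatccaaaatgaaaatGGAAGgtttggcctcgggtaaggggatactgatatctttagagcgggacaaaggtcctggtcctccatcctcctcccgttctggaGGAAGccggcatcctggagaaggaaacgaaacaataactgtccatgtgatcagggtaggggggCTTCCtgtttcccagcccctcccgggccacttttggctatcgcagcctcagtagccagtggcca
These stretches held 2 matches to GGAAG in Emcn, 2 in Selp, 3 in Stab1 and 3 in Ushbp1, and none in Cldn5. Ushbp1, which had no count, thus carried as many as Stab1. The upstream stretch of Cldn5 held no GGAA either, but 12 CG dinucleotides where that of Emcn held 1. A match is a description of letters and shows no binding.

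Genes of cell junctions and the endothelial surface made up the largest part of the programme, with 7 of 11 members in it. Emcn, the sialomucin endomucin, had 17696 counts or 3322 CPM in CPC10. In the other cells it had 0 CPM at the lowest, 3.79 at the median and 37.6 at the highest, in CPC5, so CPC10 lay 88.3-fold above that cell. Pecam1, an adhesion receptor of endothelial contacts, had 1422 CPM in CPC10. Elsewhere its median was 0.290 CPM and its highest value 10.3 CPM, in CPC7, a fold of 138. Esam, a junctional adhesion molecule, had 1379 CPM in CPC10, against a median of 0.180 and a maximum of 3.16 CPM in the others. Its fold of 436 over the highest other cell was above that of Cdh5, which encodes VE-cadherin. Cdh5 had 694 CPM in CPC10 and at most 2.37 CPM, in CPC3, which made a fold of 292. For each of these genes the 11 other cells stayed far below CPC10.

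The other junction and surface genes split. Ecscr, a regulator of endothelial movement, had 339 CPM in CPC10 and was also counted in each of the other 11 cells, from 0.545 to 7.96 CPM. In its case 3.54% of the exon bases are shared with a neighbouring gene. Clec14a, a lectin-like surface protein, had 310 CPM in CPC10. Only CPC3 among the other cells had any count of it, at 14 counts or 3.69 CPM. Icam2, a ligand for leukocyte integrins, had 293 CPM in CPC10 and was counted in 3 other cells, at most at 8.40 CPM in CPC1. Robo4, a guidance receptor of vessels, had 22 counts in CPC10 (exact 95% Poisson interval 13.8 to 33.3) and none in the other cells. That is 4.13 CPM, below the level asked.

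Ptprb and a pair of genes without counts completed the junction group. Ptprb, the phosphatase VE-PTP that acts on VE-cadherin and Tie2, had 193 CPM in CPC10 and 167 CPM in CPC12, a fold of 1.16. Cldn5, the main claudin of endothelial tight junctions, was listed at 0 in each of the 12 cells. Rasip1, which is needed for vessel lumens to form, was listed at 0 as well.

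Of the genes of permeability, lipid uptake and flow, 1 of 6 belonged to the programme. Plvap, the diaphragm protein of fenestrae and caveolae, had 13737 counts or 2579 CPM in CPC10, and from 0 to 23.2 CPM with a median of 2.72 in the others. CPC3 was the next highest cell, 111-fold below. Nos3, endothelial nitric oxide synthase, had 31 counts in CPC10 (exact 95% Poisson interval 21.1 to 44.0) and 1 count in CPC4. In its case 32.3% of the exon bases are shared with Atg9b or an antisense gene, so its reads are uncertain. Aplnr, the apelin receptor, had 30 counts in CPC10 (20.2 to 42.8) with 14 counts in CPC8, 2 in CPC6 and 1 in CPC1. Neither gene reached 10 CPM. Cd36 and Gpihbp1, the genes of fatty acid uptake and of lipase transport in capillaries, and Ushbp1 were listed at 0 in all 12 cells.

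Among selectins and genes of clotting and vessel matrix, 4 of 7 were in the programme. Selp, the adhesion receptor P-selectin, had 1304 CPM in CPC10. Its values elsewhere began at 0 CPM in CPC12, had a median of 5.27 and ended at 44.0 CPM in CPC1, a fold of 29.6. Antisense and other transcripts overlap 14.1% of its exon bases. Sele, the inducible E-selectin, had 103 CPM in CPC10 and up to 23.3 CPM, in CPC9, so its fold was 4.41. Egfl7, a secreted factor of vessel tubes, had 334 CPM in CPC10 and at most 10.1 CPM elsewhere, with 11.2% of its exon bases shared with other genes. Cd93, a receptor of endothelial matrix contacts, had 303 CPM against at most 3.47 CPM. Its matrix ligand Mmrn2 had 159 counts or 29.9 CPM in CPC10, and 1 count in each of 2 other cells. By the rule, with its floor of 3 counts, Mmrn2 was 34.4-fold higher in CPC10. Against the single count of CPC9 the ratio was 142, with a counting interval of 25.2 to 5660. Vwf, the clotting factor stored in endothelial granules, and Mmrn1, also a granule protein, had no counts in the 12 cells.

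Of the 9 transcription factors, 2 met the rule. Erg, the ETS factor that maintains endothelial identity, had 103 counts or 19.3 CPM in CPC10 and from 0 to 4 counts in the others. Its fold by the rule was 22.3. Against the 3 counts of CPC6, the next highest per depth, the ratio was 24.3 with a counting interval of 8.07 to 120. Lyl1, a bHLH factor of blood and vessels, had 59 counts in CPC10 and none elsewhere, which made it at least 12.8-fold higher there with the others set to the level of 3 counts. Such a bound takes the count in CPC10 as it stands and leaves out its counting error. Its level of 11.1 CPM (counting interval 8.43 to 14.3) cannot be told from the 10 CPM asked. The related Tal1 had 36 counts or 6.76 CPM in CPC10 and 4 counts in CPC3.

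Sox7, Fli1 and Gata2 were present beyond CPC10. Sox7, a SOXF factor, had 458 CPM in CPC10 and 72.5 CPM in CPC11, a fold of 6.32. Fli1, an ETS factor, had 104 CPM in CPC10 and between 1.33 and 15.2 CPM in the others, where every cell had counts. Gata2 had 77.0 CPM in CPC10 and at most 11.9 CPM in CPC1. With a fold of 5 in the rule these 3 genes joined the programme, which then held 19 members. The other SOXF genes, Sox17 and Sox18, were listed at 0 throughout. Prox1, the factor that sets lymphatic identity, had no count in CPC10 but 15 counts in CPC2, 7 in CPC4 and 1 in CPC3.

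The scavenger and hyaluronan receptors were divided as well. Lyve1, the hyaluronan receptor used to mark lymphatic vessels and some macrophages, had 385 counts or 72.3 CPM in CPC10 and none in the 11 others, where, at the same level of 3 counts, it was at least 83.2-fold lower. Stab1, a scavenger receptor of sinusoidal vessels and macrophages, had 1445 counts in CPC10 and 1 count in CPC6. It was 312-fold higher in CPC10 by the rule with its floor of 3 counts. Against that single count the ratio was 1021, with a counting interval of 183 to 40364. Stab2, its relative in sinusoids and lymphatics, had no count in CPC10 and 5, 1 and 1 counts in CPC2, CPC3 and CPC6.

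Counts per gene grow with transcript length, so levels were compared between genes per kb of exon and scaled to sum to 1000000 in each cell (TPM). On this scale Plvap led in CPC10 with 3812 TPM, before Emcn with 1804, Esam with 1413, Selp with 868 and Pecam1 with 670 TPM. Ecscr followed with 569, Cdh5 with 485 and Icam2 with 453 TPM. Sox7 ranked 9 of the 36 genes at 408 TPM and was the highest of the transcription factors, while Erg had 16.4 TPM. Ptprb, which is long, fell to 42.4 TPM. The 8 highest were thus all genes of membrane proteins. These are values of a single cell, and the order has no replicate.

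**Figure D2:**
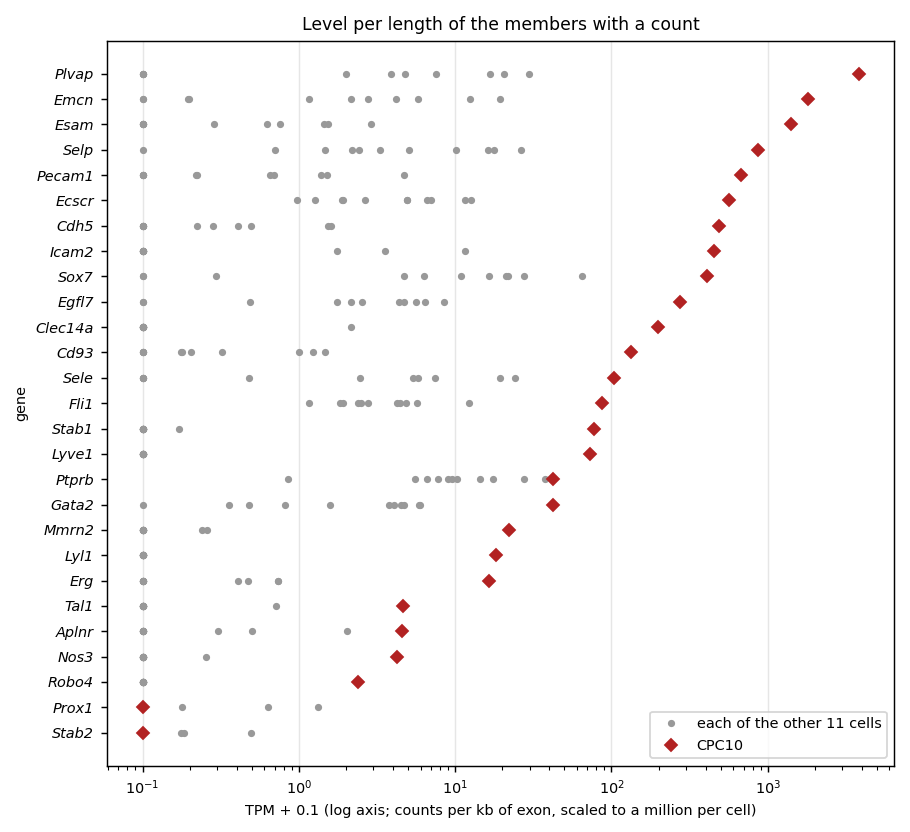
Level per length (TPM + 0.1, log axis) of the 27 endothelial genes with a count, with CPC10 as red diamonds and each of the other 11 cells as grey dots. CPC10 spans from 2.29 TPM for Robo4 to 3812 TPM for Plvap among its 25 counted genes, and for Ptprb the grey dots reach its diamond.

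The 9 genes listed at 0 in every cell were Cldn5, Rasip1, Gpihbp1, Cd36, Ushbp1, Vwf, Mmrn1, Sox17 and Sox18. Of all genes in the data, 33.4% of genes had no count in any cell. With Prox1 and Stab2, 11 of the 36 genes had at most 3 counts in CPC10, as had 55.3% of all genes. All 11 were at exactly 0 there, and the lowest counted member, Robo4, had 22 counts, so no member lay between. GC content of the longest transcript ran from 38.4% to 63.6% over the 9 genes without counts, with a median of 53.5%, and from 40.7% to 62.6% over the 27 counted genes. Exon length ran from 1416 to 16064 bases in the genes without counts and from 1752 to 13333 bases in the counted genes, so both ranges overlapped. Other genes cover 42.9% of the exon bases of Rasip1 and 16.9% of those of Sox17, and none in the other 7 genes. Jund, a transcription factor gene that most cells use, had at most 1 count in any cell here. A gene is therefore called listed at 0, and the part of the counting in these zeros was not tested.

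Part of the endothelial list was counted outside CPC10. The other cells had counts of 7 to 17 of the 36 genes, with a median of 14, and a median of 10 genes had more than 3 counts. The same cells had counts of 10022 to 11950 of all 21729 genes, a larger share than the median of the list. In any of these cells, 10 of the 36 genes reached 10 CPM, as did 48.0% of all genes. They were Ptprb, Sox7, Selp, Emcn, Plvap, Sele, Gata2, Fli1, Egfl7 and Pecam1. Each single cell held from 1 to 5 of them at that level. Egfl7 reached it only in CPC9, at 10.1 CPM (counting interval 7.42 to 13.3), and Pecam1 only in CPC7, at 10.3 CPM (7.71 to 13.4). Gata2 had at most 11.9 CPM (8.52 to 16.1), in CPC1. These levels cannot be told from 10 CPM. With counts thinned to the lowest total, or with median-ratio size factors, 8 genes reached 10 CPM, and with totals without the 50 most abundant genes 11 did.

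Ptprb accounted for 47.6% of all counts of the list in the 11 cells. With 13333 bases of exon it is long, which raises its share of counts. Per length its median over the 11 cells was 9.43 TPM, against 10.8 TPM for Sox7. Ptprb was at 3.96 CPM in CPC3, 26.1 in CPC7, 31.3 in CPC6, 34.2 in CPC9, 44.3 in CPC4, 45.2 in CPC2 and 49.1 in CPC5. Higher values were 73.3 CPM in CPC1, 79.6 in CPC11, 130 in CPC8 and 167 in CPC12. The range of Ptprb over these cells was thus wider than its difference between CPC12 and CPC10, though some pairs of cells lay closer together. Sox7 gave a further 13.8% of the counts. It was at 72.5 CPM in CPC11, 32.4 in CPC6, 25.1 in CPC5, 23.9 in CPC9, 18.1 in CPC12 and 12.7 in CPC8. In CPC1, CPC2 and CPC4 it was at 5.79, 7.41 and 0.240 CPM, and CPC3 and CPC7 had no count.

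**Figure D3:**
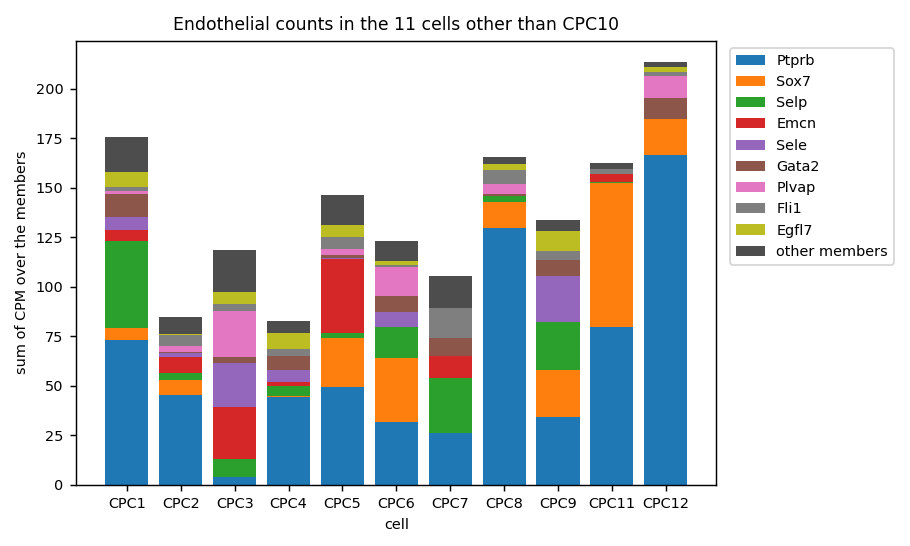
Sum of CPM over the 36 endothelial genes in each of the 11 cells other than CPC10, with the 9 genes that gave most counts in colour and the rest in dark grey. Ptprb is the largest piece in CPC12 at 167 CPM and the smallest of its values is in CPC3, where Emcn, Plvap and Sele fill most of the bar.

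Without Ptprb and Sox7 the list summed to 10.5 CPM in CPC11 at the lowest and 114 CPM in CPC3 at the highest, with a median of 59.2 CPM. CPC3 differed in composition, with Emcn at 26.4 CPM, Plvap at 23.2 CPM and Sele at 22.1 CPM. It had counts of 17 members, the most outside CPC10. CPC5 had 37.6 CPM of Emcn but no count of Esam. CPC7 had 10.3 CPM of Pecam1 and 28.0 CPM of Selp, yet no count of Plvap, Esam or Egfl7. CPC12, which had the highest sum at 214 CPM, had no count of Cdh5, Esam or Selp.

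The low counts elsewhere were set against the level in CPC10, gene by gene. For the 12 programme genes with at least 1000 counts in CPC10, the other cells held from 0 to 27.0 counts per 1000 counts of CPC10. Within a cell the genes did not keep a single ratio. In CPC1 Selp stood at 21.9 per 1000 and Icam2 at 18.6, while Pecam1 stood at 0.132 and Clec14a at 0. In CPC5 Ecscr stood at 22.1 and Emcn at 10.7, while Esam was at 0. CPC9 had 27.0 per 1000 of Egfl7 and 16.4 of Selp but no count of Pecam1, Emcn or Plvap. Summed over the 12 genes, the other cells held 0.643 to 4.76 per 1000. The 25 genes outside the list that met the same rule and count limit summed to 2.69 to 17.6 per 1000. Both sets were chosen through their level in CPC10, which caps these ratios, so the sums are given as values and not compared.

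**Figure D4:**
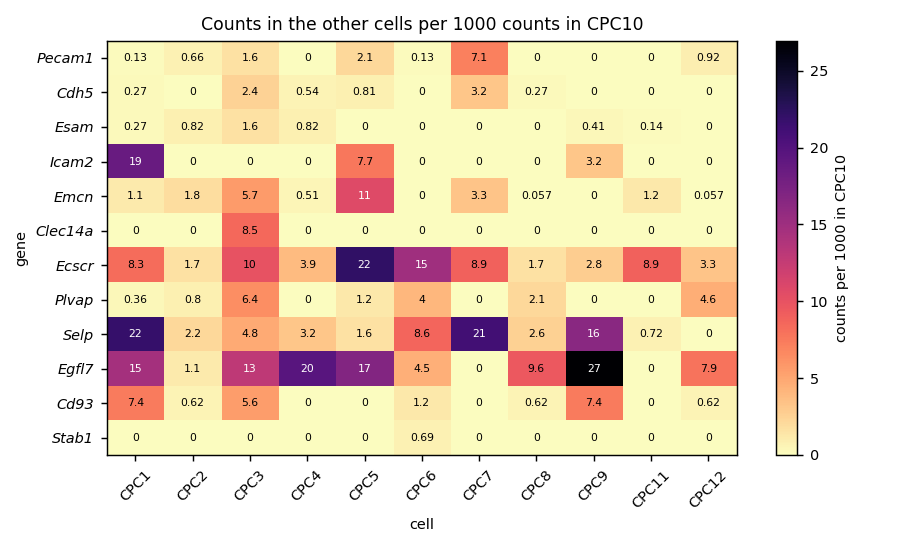
Counts in each of the 11 other cells per 1000 counts in CPC10, for the 12 programme genes with at least 1000 counts in CPC10 (rows). Values differ between genes of the same cell, from 0 to 27.0, with Egfl7, Ecscr and Selp highest and Stab1 at 0 in 10 of the 11 cells.

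Markers of other cell types were read beside the endothelial genes. The 10 fibroblast markers summed to 189 CPM in CPC10 and to between 558 and 6333 CPM in the others. Of the sum in CPC10, 175 CPM was Pdgfra, a growth factor receptor of mesenchymal cells. Dcn, Lum, Postn and Fbln1 had no count in CPC10, and Col1a2 had 2 counts. Of these, Dcn, Lum and Postn also had no count in most other cells, while Col1a2 was at 22.1 to 3946 CPM there. The 10 haematopoietic markers summed to 47.1 CPM in CPC10, inside the 27.6 to 166 CPM of the others, with Ptprc at 0 in CPC10 and Spi1 and Laptm5 at 0 in all 12 cells. The 6 megakaryocyte and platelet markers, which matter because Selp, Vwf and Mmrn1 are also platelet genes, summed to 8.82 CPM in CPC10 and to at most 12.3 CPM elsewhere. Mural markers stood at 40.9 CPM, against 13.8 to 3737 CPM, and cardiomyocyte markers at 0.188 CPM, against 0 to 86.6 CPM. Mesothelial markers summed to 41.3 CPM, against 0 to 49.4 CPM. No gene of these lists met the programme rule, which says little, since 0.607% of all genes did. CPC10 was highest for 2 of the 8 mesothelial genes, against 7.69% of all genes. They were Upk1b, at 35.1 CPM against at most 10.1 CPM, and Wt1, with 33 counts there and counts in 1 other cell. In the mural, haematopoietic and platelet lists CPC10 was highest for 1 gene each, Abcc9, Coro1a and Gp9, and for no fibroblast or cardiomyocyte marker.

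Genes of endothelial signalling outside the list were read in the same way. Of 21 receptors, ligands and targets, 5 met the programme rule and 15 were highest in CPC10, where 0.607% and 7.69% of all genes did so. Tie1, an orphan receptor of vessels, had 353 CPM in CPC10 and at most 6.66 CPM elsewhere. Its partner Tek, the angiopoietin receptor Tie2, had 47.7 CPM in CPC10 and no count in the others. Kdr, the main VEGF receptor of endothelium, had 70 counts or 13.1 CPM in CPC10 and likewise none elsewhere. Flt1, a decoy receptor for VEGF, stood higher at 599 CPM, with 78.8 CPM in CPC5, and Eng, a co-receptor for BMP9, had 1911 CPM, with 349 CPM in CPC3. Notch1 had 112 CPM and its ligand Dll4 11.1 CPM, while Acvrl1, the receptor for BMP9, was lower in CPC10, at 14.8 CPM, than in CPC5, at 85.0 CPM. Vegfc had no count in CPC10 and was counted in all 11 others. Vegfa had 16.3 CPM in CPC10 and from 51.8 to 552 CPM in the others.

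Lists for vessel subtypes were read last. Of 7 arterial genes Gja4, a gap junction gene, met the rule, at 137 CPM against at most 4.79 CPM, while Gja5 was listed at 0. CPC10 was highest for 2 of the 7, Gja4 and Bmx, and 3 had 3 counts or fewer there. Efnb2 was lower in CPC10, at 100 CPM, than in CPC4, at 127 CPM. Unc5b had 99.3 CPM in CPC10, below its median of 117 CPM in the others. None of 5 venous, 8 capillary, 6 endocardial or 6 lymphatic genes met the rule, which for lists this short says little, since 0.607% of all genes did. Of the 5 venous genes CPC10 was highest for Ephb4 only, at 175 CPM against at most 38.4 CPM, in CPC8. Over all genes CPC10 was highest for 7.69%. Of the 8 capillary genes 7 had 3 counts or fewer in CPC10, as had 55.3% of all genes, and Fabp4, a fatty acid carrier, was at 132 CPM. Of those 7, 4 were listed at 0 in all 12 cells. In the lymphatic list Flt4, a receptor for VEGF-C, had 94.6 CPM in CPC10 and 12.0 CPM in CPC6, whereas Ccl21a and Reln were listed at 0. Npr3, an endocardial marker, had no count in CPC10 and up to 142 CPM in CPC4, while Cgnl1, a junction gene of the same list, was highest in CPC10 at 490 CPM, with at most 138 CPM elsewhere. Of 15 further transcription factors none met the rule, and 7 were highest in CPC10, against the same 0.607% and 7.69% of all genes. Klf2, a factor induced by flow, had 209 CPM there and at most 68.5 CPM elsewhere, and Hhex had 47 counts in CPC10 and none in the others.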

How the data were processed

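Libraries of single cells came from the Smart-Seq v4 and Nextera XT kits. Mapping by the authors was to mm10 with STAR 2.5.2b, and reads with more than 1 location were dropped. What was deposited is a table of whole counts, unnormalized, and the counting program, annotation and strand rule are not given in the sources used here. Reads of overlapping genes are therefore uncertain.

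From the counts, CPM was calculated with the total of each cell. TPM used the union of exons in GENCODE vM21, which matched 98.4% of symbols. Folds were taken over the highest other cell, with 3 counts as the lowest value, and for listed genes of the programme with 1 to 3 counts there the ratio to that count is given beside the fold. Poisson and binomial intervals were exact, at a level of 0.95. All 36 members are accounted for, and other genes were named from set lists or as the 10 non-members with the highest fold among genes at 50 CPM or more in CPC10. Jund was named after its values were seen. Members and lists were chosen with earlier results of these data known. Doublets were not called. The fold rule was tested on simulated data. Calculations ran in Python 3.11.15 with pandas 2.3.3, intervals came from scipy 1.17.1, and plots from matplotlib 3.10.9.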

Additional observations from a re-analysis of the deposited data

How the results depend on the processing

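Over 6 results 26 alternatives were tried, and 7 of them gave a value outside the allowance for that result. The allowance was a factor of 1.5 for counts of genes, 1 SD over the 11 cells for medians and the exact binomial interval for the sum in CPC10. The programme kept its 16 genes under median-ratio size factors, under totals without the 50 most abundant genes, after thinning to the lowest total and at 1 CPM, and numbered 16 without CPC3. Asking 1 CPM or leaving out CPC3 can take no gene out by construction. At 1 CPM little can be added either, since CPC10 must still lie 10-fold above the floor of CPC1, 0.869 CPM. The programme lost Lyl1 at a fold of 20, lost Erg, Lyl1 and Mmrn2 at 50 CPM, and gained Fli1, Gata2 and Sox7 at a fold of 5. The number of genes at the floor in CPC10 was 11 in each setting. That outcome was fixed, because all 11 were at 0 counts and the lowest counted member, Robo4, had 22. Limits of 0, 3 or 10 counts could not move it, and thinning cannot raise a 0. These settings are among the 26 alternatives.

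The sum in CPC10 was 15099 CPM with size factors, 17081 CPM with totals without the 50 most abundant genes and 10318 CPM without Emcn. In the other 11 cells the median sum was 83.0 CPM without the top member of each cell, the median number of genes was 10 at more than 3 counts and 8 at 10 counts, and 6 genes reached 20 CPM in any cell. These limits and omissions lower the values by construction, and smaller totals raise them; for size factors the cause was not tested. No paired analysis was possible because the cells used here form 1 group. With 1 cell of its kind, no value of CPC10 has a replicate, and levels near 3 counts are set by depth.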

Other observations

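Genes outside the endothelial list stood out in CPC10 by similar margins. Among the 3693 genes at 50 CPM or more in CPC10, ranked by the fold over the highest other cell, the 10 highest held 4 members of the list and the 50 highest held 13. At most 36 of the 3693 ranked genes could be members. The list was drawn up with the levels in CPC10 known, so these places are partly built in. The other genes at the top were Efna1, an ephrin ligand, at 578 CPM in CPC10 and at most 1 count elsewhere, and Icam1, a receptor for leukocytes, at 725 CPM and at most 10 counts. Sh2d3c, an adaptor protein, had 285 CPM, Col23a1, a transmembrane collagen, 267 CPM and Adgrf5, an adhesion G protein receptor, 266 CPM. Tmem108 had 524 CPM, Gimap6 213 CPM, Klhl4 119 CPM, Sh3tc1 119 CPM and Card10 86.6 CPM in CPC10. Of these, Col23a1, Klhl4 and Card10 had no count in the 11 other cells.

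Genes tied to mesenchymal transition were mixed in CPC10. None of the 8 met the programme rule, which 0.607% of all genes met. Fn1, fibronectin, was the only 1 of them that was highest in CPC10, at 3830 CPM against at most 1512 CPM in CPC1. CPC10 was highest for 7.69% of all genes, so for a list this short these counts say little. Twist1 had no count in CPC10 and from 9.31 to 32.7 CPM in the others, and S100a4 had 10.3 CPM against 52.0 to 267 CPM. Cdh2, N-cadherin, had 169 CPM in CPC10, inside the range of 47.2 to 334 CPM of the others. CPC10 therefore carried transcripts of N-cadherin beside those of VE-cadherin.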
